A study of Drosophila melanogaster with 8 samples.

Results

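The data described here were the expression profiles of whole adult heads of wild type (WT) Drosophila melanogaster, measured on 4 Affymetrix 3′ arrays out of the 8 arrays of the series. All 4 WT samples carried the genotype label wild type and the strain name W118, with neither a Gal4 driver nor an RNAi transgene, and were reared at 29°C. They were labelled as biological replicates 1 to 4. Each sample pooled many heads. The sex and age of the flies are not given in the sources used here. The other 4 arrays of the series, from heads with GMR-Gal4-driven HEXIM knockdown, were not used. After the control probe sets were left out, 18769 of 18952 probe sets remained, and 13646 of them carried a single gene symbol. These covered 11981 genes, each represented by the brightest of its probe sets. Values were on the log2 scale, so 1 unit is a doubling of signal.

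A fly head is a composite organ. The compound eyes, the brain with its neurons and glia, the antennae and mouthparts with their sensory neurons, the head muscles, the fat body and the cuticle all contribute RNA, so a whole-head level is a mixture over cell types. In such bulk samples, fewer cells of a type and less RNA per cell cannot be told apart. The level of a probe set also reflects how well its probes bind. Of the 1094 genes with several probe sets, 799 (73.0%) had probe sets that differed by at least 1 log2 unit in mean level, with a median difference of 2.17 between the brightest and the dimmest. RpS29, a ribosomal protein gene, had one probe set at 13.26 and another at 2.90. The order of genes given here is therefore an order of signals and not of transcript numbers.

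Mean levels over the 4 WT arrays ran between 2.43 and 14.05, with a median of 5.48. The distribution had its peak near the low end and a broad shoulder above it. As a measure of background, the 118 probe sets of 112 genes of the ovary, testis, male accessory gland and larval salivary gland were taken, none of which are head tissues. The 90th percentile of their means, 5.71, served as the background ceiling. At or below it lay 9826 probe sets (52.4%) and 4748 named genes, 39.6% of all 11981 named genes. The top 5% of probe sets began at 10.52 and formed the high band, which held 939 probe sets and 714 named genes, 5.96% of named genes. The middle of the array, taken as the probe sets between the 40th and 60th percentile at 4.71 to 6.52, lay on both sides of the ceiling, so a gene at the median of the array could not be told from background.

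**Figure D1:**
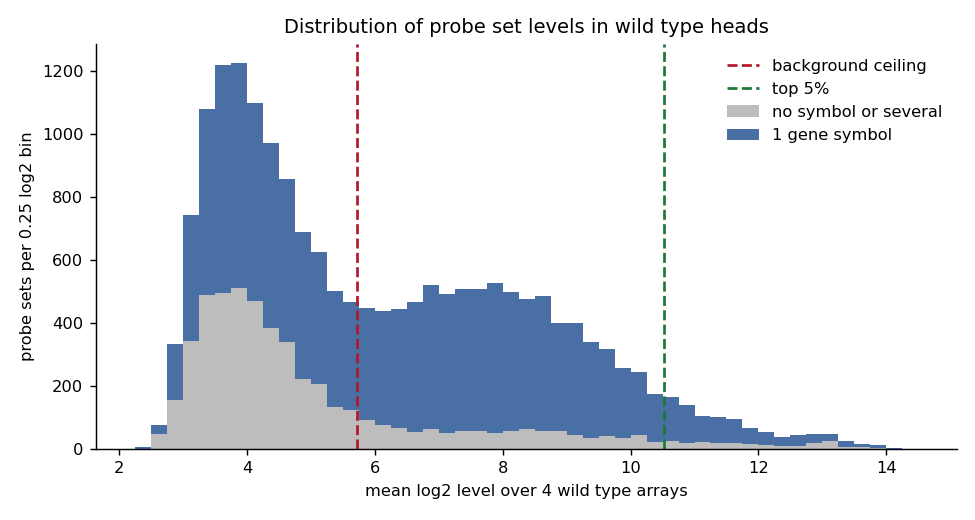
Number of probe sets per bin of mean log2 level over the 4 WT arrays, stacked by whether the probe set has 1 gene symbol; dashed lines mark the background ceiling at 5.71 and the start of the top 5% at 10.52. The peak of the distribution lies below the ceiling, and 52.4% of probe sets lie at or below it.

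Eye, muscle, respiratory chain and ribosomal protein genes were all present among the 20 brightest named genes, beside genes of none of these groups. CG7203, a gene without a given name, was first at 14.05 ± 0.04 (SD, n = 4 here and throughout). Nplp3, a neuropeptide-like precursor gene, followed at 13.98 ± 0.03. Then came a pair of eye genes, Arr2, which encodes the main arrestin that shuts off rhodopsin, at 13.97 ± 0.10, and retinin, a protein of the corneal lens, at 13.95 ± 0.09. Muscle and calcium-handling genes were next, with the sarcoplasmic calcium-binding protein gene Scp1 at 13.92 ± 0.09, the calcium pump gene SERCA at 13.87 ± 0.05 and the actin gene Act79B at 13.86 ± 0.02. sesB, the mitochondrial ADP/ATP carrier, stood at 13.86 ± 0.01. The rest of the 20 highest included Pdh, a retinol dehydrogenase of the eye's pigment cells, Arr1, the muscle genes Mf and Mlc1, the ribosomal protein genes RpL41, RpL15 and RpS28b, the respiratory chain genes ND-MLRQ and ATPsynC, the fatty acid-binding protein gene fabp and the odorant-binding protein gene Obp44a. Of the 19 pairs of neighbours in this group, 17 had overlapping ranges over the 4 arrays, so the order of most neighbours was not resolved. Against the first gene alone, 4 of the 20 genes, the first included, reached the range of CG7203 and the others lay wholly below it. This did not follow the order of means. Nplp3, second by mean, reached 14 and stayed below 14.01, the lowest value of CG7203, whereas Arr2, retinin and Scp1 overlapped with it.

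A gene may be on several lists. Of the 100 highest named genes, 45 were on the housekeeping lists, 10 on the muscle list, 8 on the eye lists and 28 on none of the lists used here. In the whole high band the housekeeping lists held 148 of 714 genes, the neuron lists 21, the eye lists 21 and the muscle list 19, while 446 genes were on none. The lists differ in size, so these counts do not compare them. The high band held 73.1% of 26 muscle genes, against 5.96% of all named genes. For the neuron lists it held 34.4% of 32 synaptic, 13.3% of 45 neurotransmitter and 11.4% of 35 neuropeptide genes. For the eye lists it held 44.1% of 34 phototransduction, 27.3% of 22 pigment and 0% of 27 regulator genes. Genes known only by a computed gene (CG) number made up 133 of 714 genes in the high band (18.6%), against 2742 of 4748 at or below the ceiling (57.8%). The gene nearest the median of the high band was Got2, a glutamate oxaloacetate transaminase, with 11.47, 11.34, 11.05 and 11.56 in WT replicates 1 to 4. At the other end, the 5 lowest named genes were Jon99Fi, kl-3, CG11362, CG7579 and CG31872, between 2.48 and 2.64. Jon99Fi belongs to a family of digestive proteases of the gut, and kl-3 is a fertility gene for a dynein heavy chain of the sperm tail.

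**Figure D2:**
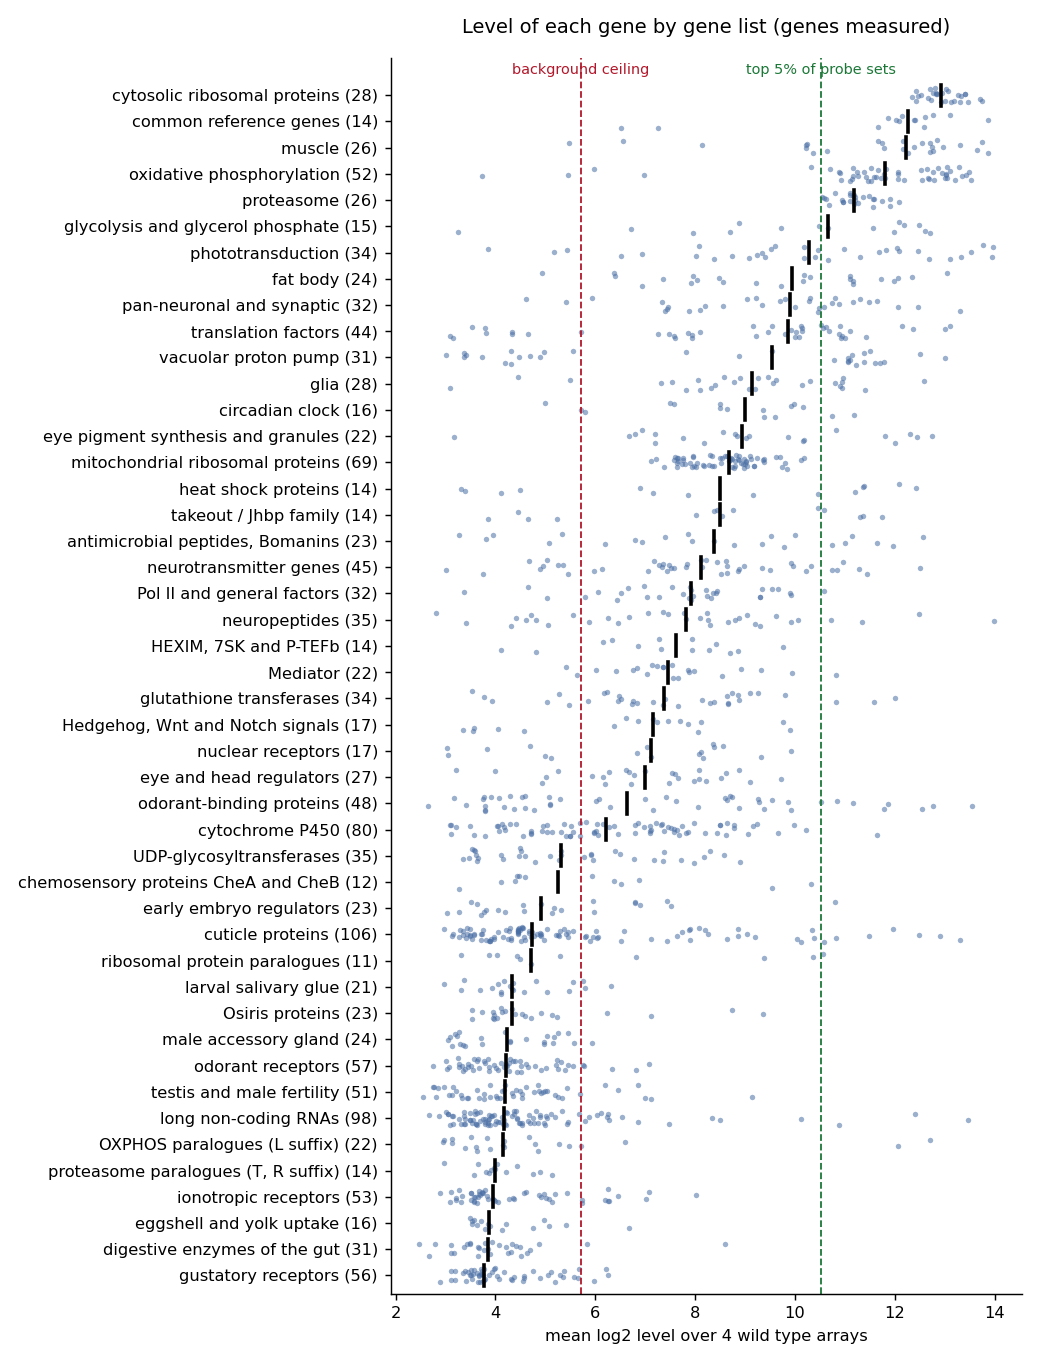
Mean log2 level over the 4 WT arrays of each gene on lists with at least 10 measured genes, 1 point per gene, with the list's median as a black bar; dashed lines mark the background ceiling at 5.71 and the start of the top 5% at 10.52. The 28 measured cytosolic ribosomal protein genes, of 80 listed, lie wholly in the high band. The gustatory, ionotropic and odorant receptor families lie mostly below the ceiling.

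The cytosolic ribosomal protein and proteasome lists stood high, each within a narrow band. Of the 80 genes on the cytosolic ribosomal protein list, 28 had a probe set of their own. All 28 were in the high band, each by its brightest probe set. They lay between 12.33 (RpLP0) and 13.74 (RpL41), with a median of 12.93 against 6.64 for all named genes. Their median SD was 0.06. The most variable was RpS18, with 12.66, 13.06, 12.83 and 13.10 in WT replicates 1 to 4. The 26 proteasome genes were also all in the high band, between 10.54 (Rpn1, of the regulatory particle base) and 12.08 (Rpn6, of its lid), with a median of 11.18. The 69 mitochondrial ribosomal protein genes formed a separate and lower block, between 7.12 (mRpS2) and 10.18 (mRpS5), with a median of 8.68. None of them reached the high band and none fell to the ceiling. Translation factors spread more widely. eEF1alpha2, an elongation factor that delivers tRNA, stood at 13.10 and eEF5 at 13.01, whereas 8 of 44 lay at or below the ceiling, down to 3.10 for eIF3f2.

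Oxidative phosphorylation, which turns respiratory energy into ATP, had 47 of 52 genes in the high band and a median of 11.81. Its lowest members were ND-B8 at 3.74 and Cyt-c1L at 5.45. The second is a paralogue of Cyt-c1, which stood at 12.67. A split between a gene and its paralogue recurred in several complexes. The 22 genes named as paralogues of respiratory chain genes by an L suffix had a median of 4.16. Of these, 18 (81.8%) were at or below the ceiling, against 39.6% of all named genes. The exceptions were COX7AL2 at 12.70, UQCR-11L at 6.60, COX4L at 5.72 and ND-MNLL at 12.07, the last of which is a regular complex I subunit that the suffix caught by its spelling. All 14 paralogues of proteasome genes with a T or R suffix, which are known from the testis, were at or below the ceiling, at 5.13 (Rpn13R) or less. The 26 proteasome genes above were at 10.54 or higher.

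The vacuolar proton pump, which acidifies organelles and synaptic vesicles, had genes at both ends of the scale. Of its 31 genes, 15 (48.4%) were in the high band, led by Vha16-1 at 13.01 and Vha13 at 12.51. The share of all named genes there was 5.96%. At or below the ceiling were 13 (41.9%), the lowest being Vha68-3 at 3.00, a share close to the 39.6% of all named genes. The remaining 3 were Vha100-2 at 9.53, VhaM9.7-c at 8.89 and Vha36-3 at 7.83. The median of 9.53 therefore described few of its members. The list of ribosomal protein paralogues of the germ line was mixed, with 7 of 11 genes at or below the ceiling. Its members were left out of the cytosolic ribosomal protein list. RpL24-like stood at 10.56, RpL34a at 10.37 and RpL7-like at 9.38, and the place of these genes on a germ line list is uncertain. RpL22-like, RpS19b and RpS28a stood at 3.31, 3.86 and 4.03.

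Muscle structural genes were among the strongest of the tissue lists, with 19 of 26 genes in the high band and a median of 12.22. Below Act79B, Mf (myofilin) stood at 13.74, Mlc1 (myosin alkali light chain) at 13.64 and Mlp60A, a LIM protein, at 13.31. The flight muscle genes were not uniform. Act88F, the flight muscle actin, was at 10.65, TpnC4 at 6.55 and fln (flightin), a thick filament protein of flight muscle, at 5.47, below the ceiling. Flight muscle lies in the thorax and not in the head. The values of fln were 5.37, 4.88, 5.72 and 5.90 in WT replicates 1 to 4. The most variable muscle gene was up, the troponin T gene, with 9.49, 10.83, 9.55 and 11.03, so that WT replicates 1 and 3 lay below replicates 2 and 4 by more than 1 unit.

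Phototransduction in the fly begins with rhodopsin, which activates a Gq protein and phospholipase C and opens the TRP and TRPL channels, and arrestins end the response. The 34 genes of this list had a median of 10.29, and 15 were in the high band. Among the channels and scaffold, trpl stood at 13.10, trp at 12.04 and inaD, which holds the signalling complex together, at 10.47. The G protein subunit genes Galphaq and Gbeta76C stood at 12.47 and 12.08. rdgB, a phosphatidylinositol transfer protein, was at 12.69, and chp (chaoptin), an adhesion protein of the photoreceptor membrane, at 13.32. Some members were near background. Trpgamma, a channel related to TRP, was at 3.85 with an SD of 0.09, and inaF-A and CG34384 were at 5.18 and 5.43. The retinoid-binding protein gene pinta was the most variable, with 6.65, 7.37, 6.25 and 7.43 in WT replicates 1 to 4.

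Eye pigment genes spanned the scale, with a median of 8.93 over 22 genes and 6 in the high band. Drat, an alcohol dehydrogenase-domain gene whose place on the list is uncertain, was highest at 12.75, followed by Pu, the first enzyme of pteridine synthesis, at 12.45, Rab32 at 12.29, se at 12 and pr at 11.80. The genes of granule transport, such as g, car, rb and cm, lay between 6.93 and 8.84. The single member at or below the ceiling was cn, the kynurenine monooxygenase of the brown pigment pathway, with 3.06, 3.11, 3.28 and 3.20 in WT replicates 1 to 4. All 4 arrays placed it near the bottom of the scale. The transcription factors of eye and head development were of intermediate level, with a median of 7.0 over 27 genes and none in the high band. pros was highest at 9.72 and toy followed at 9.10, whereas ro, which acts in the larval eye disc, was at 3.22 and ato, the proneural gene of the first photoreceptor, at 5.01.

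Neuronal genes were well represented. The pan-neuronal and synaptic list had a median of 9.91 over 32 genes, of which 11 were in the high band and 2 at or below the ceiling. nrv3, a sodium pump beta subunit of neurons, led at 13.31, followed by Snap25, a fusion protein of the synapse, at 12.46. elav, the common neuronal marker, stood at 10.74. The synaptobrevin gene Syb, whose place on a neuronal list is uncertain, stood at 10.88. The active zone gene brp was at 7.44 and the sodium channel gene para at 7.34. The potassium channel gene eag was lowest, at 4.62 with an SD of 0.05. Rop, a Sec1 family gene of vesicle fusion, varied most, with 8.75, 9.99, 8.76 and 9.86 in WT replicates 1 to 4.

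Genes of transmitter synthesis, transport and reception were lower and wider, with a median of 8.11 over 45 genes, 6 in the high band and 9 at or below the ceiling. Gad1, which makes GABA, was highest at 12.50. The acetylcholine genes nAChRbeta1 and ChAT stood at 11.44 and 11.29, and Hdc, which makes histamine, the photoreceptor transmitter, at 10.31. The glutamate transporter gene VGlut was at 4.89 and Grd, a ligand-gated channel subunit, was lowest at 3.01. The neuropeptide genes had the widest span of the neuronal lists, between 2.80 (amn) and 13.98 (Nplp3), with a median of 7.82 over 35 genes. Nplp2 stood at 12.48, with 12.60, 12.66, 11.77 and 12.91 in WT replicates 1 to 4, so replicate 3 alone was low. Ms (myosuppressin) stood at 11.34, AstC at 10.73 and SIFa at 9.91. The insulin-like peptide genes Ilp5 and Ilp2, made by a small cluster of brain cells, were at 9.61 and 9.04, and Pdf, the peptide of clock neurons, at 9.20. Akh, which is made in the corpora cardiaca, was at 4.61 and ETH, made in tracheal Inka cells, at 3.40.

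Glial genes had a median of 9.14 over 28 genes, with 7 in the high band. Gs2, a glutamine synthetase of glia, was at 12.58, the bnb gene at 11.40 and the glutamate family transporter gene Eaat2 at 10.96. repo, the general glial marker, stood at 9.62. The 3 members at or below the ceiling were axo at 5.48, gcm at 4.46 and gcm2 at 3.09, and gcm and gcm2 are switches that act when glia are formed in the embryo. Clock genes lay between 4.98 (Hr51) and 11.19 (Pdp1), with a median of 9.0 over 16 genes. tim, whose product forms a repressor with that of per, stood at 10.74 and per at 7.58. The clock list was among the tighter tissue lists, with a median SD of 0.13 and no member with a range of 1 or more.

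Chemosensory families differed in level. The odorant-binding proteins, which are secreted into the fluid around sensory neurons, included some of the brightest genes of the head. Obp44a was at 13.55, Obp56d at 12.75 and Obp56e at 12.54. In the high band were 8 of 48 (16.7%), against 5.96% of all named genes. At or below the ceiling were 21 of 48 (43.8%), down to Obp46a at 2.64, a share close to the 39.6% of all named genes. The receptors themselves lay near background, where 52 of 57 odorant receptor genes, 53 of 56 gustatory receptor genes and 43 of 53 ionotropic receptor genes were at or below the ceiling. These are shares of 91.2%, 94.6% and 81.1%, against 39.6% of all named genes. Orco, the co-receptor shared by most olfactory neurons, was at 5.0, and Ir25a, a co-receptor of the ionotropic family, at 5.19. Each receptor is known to be made by few of the head's cells. The receptors above the ceiling included Ir68a at 8.01, Ir10a at 7.07, Or30a at 7.08 and Or1a at 6.82. By its definition the ceiling also leaves some genes of the ovary, testis, accessory gland and salivary gland lists above it. On those lists 85.7% to 95.8% of genes were at or below it. The odorant and gustatory receptor shares lay within that span. A level above the ceiling therefore does not by itself show that a receptor is expressed. At this depth of signal a receptor below the ceiling was not detectable above background, which does not show that it is absent.

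**Figure D3:**
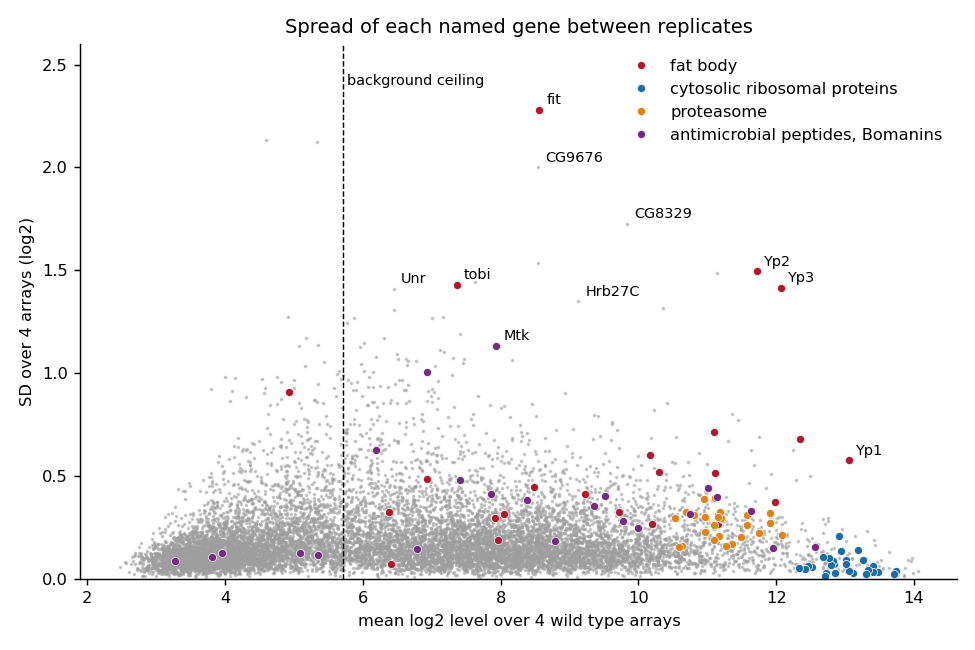
SD over the 4 WT arrays (log2) against mean log2 level, 1 point per named gene, with the genes of 4 lists in colour and the background ceiling at 5.71 as a dashed line. Cytosolic ribosomal protein genes lie at high level and low SD, and fit, Yp2 and Yp3 of the fat body list stand above nearly all genes of their level.

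The fat body, the fly's counterpart of liver and adipose tissue, lines the head capsule and secretes yolk, lipid carrier and defence proteins. Its 24 listed genes had a median of 9.94, with 9 in the high band. Yp1, a yolk protein, stood at 13.05, apolpp, the main lipid carrier of the blood, at 12.34, and FASN1, a fatty acid synthase, at 11.98. Antimicrobial peptides and the related Bomanins, which are secreted after infection, were expressed over a wide range, with a median of 8.38 over 23 genes. IM33, an immune-induced gene whose place on this list is uncertain, stood at 12.56. BomS2 stood at 11.96, Drs (drosomycin) at 9.52 and Def (defensin) at 7.86, while AttD was at 3.28. The 8 Bomanin genes measured lay between 9.35 (BomT2) and 11.96 (BomS2). At or below the ceiling were 5 of the 23 genes of the list (21.7%), against 39.6% of all named genes. Of the Turandot stress proteins, 4 of 5 were at or below the ceiling, and TotC stood above it at 7.12.

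Detoxification families differed in level, and each spanned a wide range. Among 80 cytochrome P450 genes, 33 (41.3%) were at or below the ceiling, a share close to the 39.6% of all named genes, and a single one, Cyp313a1 at 11.64, was in the high band. Cyp6d5 followed at 10.22 and Cyp6a17 was lowest at 3.08. Glutathione transferases had a median of 7.38 over 34 genes, above the 6.64 of all named genes, with 6 at or below the ceiling, GstD1 at 12 and GstE12 at 11.58. UDP-glycosyltransferases had a median of 5.31 over 35 genes, with 19 at or below the ceiling and none in the high band. The structural cuticle proteins, which are mostly made when a cuticle is laid down, had 71 of 106 genes at or below the ceiling. Their brightest members, Cpr100A at 13.31 and Cpr62Bc at 12.91, were among the brightest genes of the head. Of 23 Osiris genes, 19 were at or below the ceiling, with Osi2 at 9.37 and Osi6 at 8.74 above it.

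Nuclear regulators stood at intermediate levels, with list medians above the 6.64 of all named genes. The 32 genes of RNA polymerase II and its general factors had a median of 7.92, with Taf3 highest at 10.58 and the polymerase subunit gene Polr2K at 9.92, and the 22 Mediator genes had a median of 7.45. The list around P-TEFb, the kinase that releases paused polymerase, had a median of 7.63 over 14 genes. Hexim, whose product inhibits P-TEFb and is the gene targeted elsewhere in the series, had 8.14, 7.85, 7.96 and 7.79 in WT replicates 1 to 4. Cdk9, the kinase subunit, had 8.52, 8.20, 8.30 and 8.09. CycT, the cyclin subunit, had 5.28, 6.94, 5.4 and 6.96, so 2 arrays placed it below the ceiling and 2 above it. Its SD of 0.93 compared with 0.15 for Hexim and 0.18 for Cdk9. Larp7 was lowest of the list, at 4.12.

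Among regulators of body pattern, the homeotic genes Dfd and Scr, which act in head and neck segments, stood at 7.61 and 7.02, Antp at 6.48 and pb at 3.19. Of 23 segmentation genes of the early embryo, 15 (65.2%) were at or below the ceiling, against 39.6% of all named genes. The exception at the top was hry, a repressor of the Hes family, at 10.80, and tll was lowest at 3.02. Of 2733 listed long non-coding RNA genes, 98 were measured. At or below the ceiling were 82 of the 98 (83.7%), but lncRNA:mimi stood at 13.47, and lncRNA:CR42862 at 12.40. The 31 digestive enzymes of the gut, which were not used to set the ceiling, included 29 (93.5%) at or below it. The other 2 were LManII, a lysosomal mannosidase, at 8.59 and LManI at 5.83. Among the 51 testis genes used for the ceiling, f-cup stood far above the others at 9.14, with an SD of 0.10.

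The position of genes along the chromosomes was read from the order of genes in RefSeq (assembly Release 6 plus ISO1 MT), for 11898 placed genes. Of genes at or below the ceiling, 52.1% had a next neighbour that was also there, against a share of 39.4% of all placed genes. There were 296 runs of 4 or more such neighbours, the longest of 21 genes. Several of these runs were gene families, such as a stretch holding Osi10b to Osi20, a stretch of Tweedle cuticle genes that includes TwdlM and TwdlQ, a stretch of trypsin genes that includes alphaTry and betaTry, and a stretch of Eig71E genes. Genes in the high band had a next neighbour in the high band in 9.40% of cases, against 6.0% of placed genes, and their longest run was of 3 genes.

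The 4 arrays resembled each other closely over the scale as a whole. Across the 18769 probe sets, the Pearson correlation of pairs of arrays lay between 0.986 and 0.997, given as a description since probe sets are not independent. The median SD of a probe set was 0.15. It was 0.14 in the high band, 0.17 between the bands and 0.14 at or below the ceiling, and 0.20 between the 40th and 60th percentile. Over all arrays 1079 probe sets (5.75%) and 679 named genes (5.67%) had a range of at least 1 log2 unit. This share was 3.51% of probe sets in the high band, 8.16% between the bands and 4.0% at or below the ceiling. It was 12% between the 40th and 60th percentile.

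The arrays were closest in 2 pairs. WT replicates 2 and 4 correlated at 0.997 and differed by 1 unit or more at 29 probe sets, and WT replicates 1 and 3 correlated at 0.995 and differed so at 85. The other pairs correlated at 0.986 to 0.988 and differed at 519 to 652 probe sets. When the 1079 probe sets with a range of at least 1 were divided at their widest gap, replicates 1 and 3 formed the low side in 422 and replicates 2 and 4 in 324. Replicate 3 alone was low in 113 and replicate 1 alone was high in 52. The remaining 168 were spread over the other divisions, with replicate 4 alone low in 46.

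Of the named genes with replicates 1 and 3 low, 67 of 294 were at or below the ceiling, where 39.6% of all named genes lay. They included regulators of RNA and protein as well as signalling genes of neurons. Unr, an RNA-binding translational regulator, had 5.20, 7.91, 5.28 and 7.40 in WT replicates 1 to 4. Hrb27C, a nuclear RNA-binding protein, had 7.83, 10.42, 8.10 and 10.17, and Ubr3, a ubiquitin ligase, had 5.09, 7.60, 5.57 and 7.53. In each of these genes the pairs did not overlap, and the smallest gap between them was 1.96 units, in Ubr3. Dh44, a diuretic hormone gene of brain neurons, had 6.32, 8.45, 6.81 and 8.24, and the serotonin receptor gene 5-HT1B had 4.27, 6.50, 4.5 and 6.16. CG14989 and CG5758, without given names, followed the same order, with 9.34, 11.57, 9.10 and 11.41 and with 6.05, 8.21, 6.09 and 8.33.

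Genes with replicates 2 and 4 low lay nearer to background. At or below the ceiling were 82 of 130 named genes, against 39.6% of all named genes. They included testis genes such as d-cup, with 6.18, 4.60, 6.51 and 4.47 in WT replicates 1 to 4. The receptor genes Or30a, with 7.87, 6.64, 7.52 and 6.30, and Gr36a, with 6.96, 5.92, 6.55 and 5.41, showed the same order, and so did UQCR-11, a small subunit of complex III, with 7.80, 6.16, 7.70 and 6.27. All 6 testis genes with a range of at least 1 had replicates 2 and 4 on the low side. The same held for 130 of all 679 named genes with such a range. Among long non-coding RNAs with such a range it held for 4 of 6, so the division was not particular to testis genes. The array's control probe sets, placed at the 3′ end, the middle and the 5′ end of common transcripts, moved with the same pairs. For GAPDH the 5′ level minus the 3′ level was -4.70, -2.47, -4.72 and -2.56 in WT replicates 1 to 4, and the middle minus the 3′ level was -2.06, -1.18, -2.12 and -1.31. For eIF-4a the middle minus the 3′ level was -1.91, -1.16, -1.79 and -1.16, and for actin it was -1.45, -0.55, -1.78 and -0.58. The 5′ minus the 3′ level was -6.71, -5.75, -6.93 and -5.50 for eIF-4a. For actin it was -5.71, -5.38, -5.47 and -5.20, where the pairs hardly parted. Their part in the levels of these genes was not tested.

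**Figure D4:**
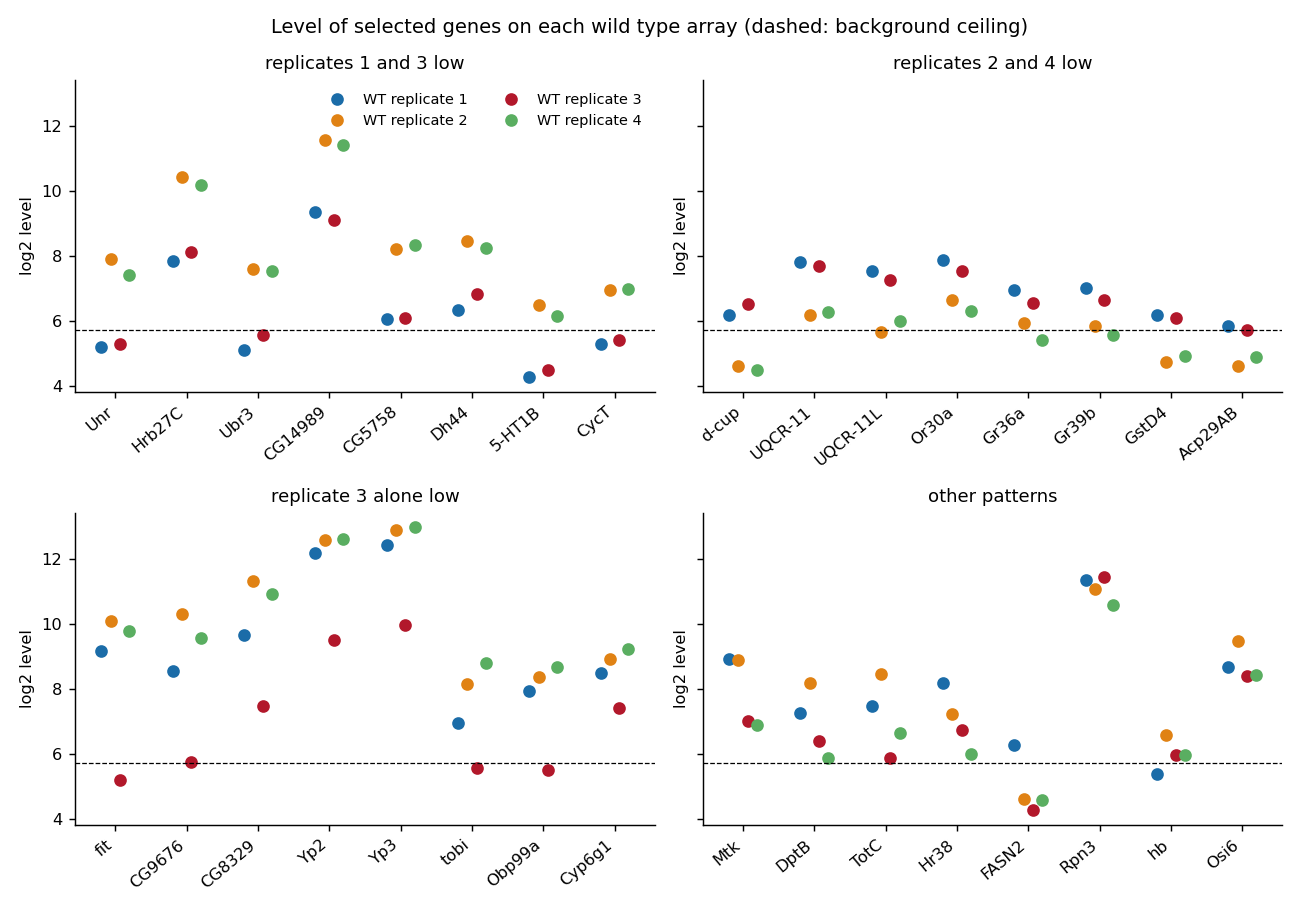
Log2 level of 32 genes on each of the 4 WT arrays, 1 colour per replicate, grouped by which arrays lie low; the dashed line is the background ceiling at 5.71. Replicates 1 and 3 lie together and apart from 2 and 4 in the upper panels, and replicate 3 lies below the others in the lower left panel.

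Another group of genes was low in WT replicate 3 alone, and these were well expressed. At or below the ceiling were 3 of 96 named genes, against 39.6% of all named genes. fit, a gene expressed in the fat body around the brain mainly of females, had the largest SD above the ceiling, with 9.17, 10.08, 5.18 and 9.79 in WT replicates 1 to 4. The yolk protein gene Yp2 had 12.19, 12.57, 9.49 and 12.62, and Yp3 had 12.42, 12.89, 9.97 and 12.98. Yolk proteins are made in females. Replicate 3 was thus below the other arrays by more than 2 units for these genes and overlapped with none of them. CG9676 and CG8329, genes of the serine protease type, had 8.55, 10.30, 5.73 and 9.56 and 9.66, 11.31, 7.47 and 10.91. The insulin-responsive gene tobi had 6.95, 8.16, 5.55 and 8.79, Obp99a had 7.94, 8.37, 5.51 and 8.67, and the P450 gene Cyp6g1 had 8.49, 8.92, 7.41 and 9.21.

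Within the fat body list, replicate 3 was the lowest array for 20 of 24 genes, where 21.3% of all named genes had their lowest value on that array, and 13 of 24 genes had a range of at least 1, against 5.67% of named genes. Of these 13, 10 had replicate 3 alone on the low side. The list's mean was 9.64, 9.77, 8.78 and 9.85 in WT replicates 1 to 4. Without Yp1, Yp2, Yp3 and fit it was 9.21, 9.27, 8.69 and 9.39, and replicate 3 was still the lowest array for 16 of the 20 other genes. With replicate 3 left out, 2 of the 24 genes kept a range of at least 1. On the other side, Obp99b, a gene known to be higher in heads of males, was highest in replicate 3, with 11.06, 11.02, 11.55 and 10.99. The remaining genes of the male list, fru, dsx and msl-2, had replicate 3 as their lowest array by a small margin, as in fru with 9.04, 9.17, 8.93 and 9.11. The proportion of females in each sample is not given, and its part in these values was not tested.

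The lowest array of each list also marked changes of small size that ran through whole complexes. For the proteasome, replicate 4 was the lowest array for 24 of 26 genes, where 24.2% of all named genes had their lowest value on that array, and replicate 3 was the highest for 22 of 26, where the share was 25.3%. The list's mean was 11.33, 11.21, 11.47 and 10.89 in WT replicates 1 to 4. Rpn3, a lid subunit, had 11.35, 11.06, 11.45 and 10.57, and the core subunit gene Prosbeta4 had 12.03, 11.85, 12.20 and 11.56. The median SD of proteasome genes was 0.27, against 0.06 for the cytosolic ribosomal protein genes and 0.15 for all named genes. Replicate 4 was the highest array for 49 of 69 mitochondrial ribosomal protein genes and 39 of 52 oxidative phosphorylation genes, where 23.7% of all named genes had their highest value there. These shifts were small, with list means of 8.49, 8.55, 8.56 and 8.70 for the first and 11.54, 11.62, 11.55 and 11.72 for the second. The genes of a complex share the same arrays, so the counts describe these 4 samples.

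**Figure D5:**
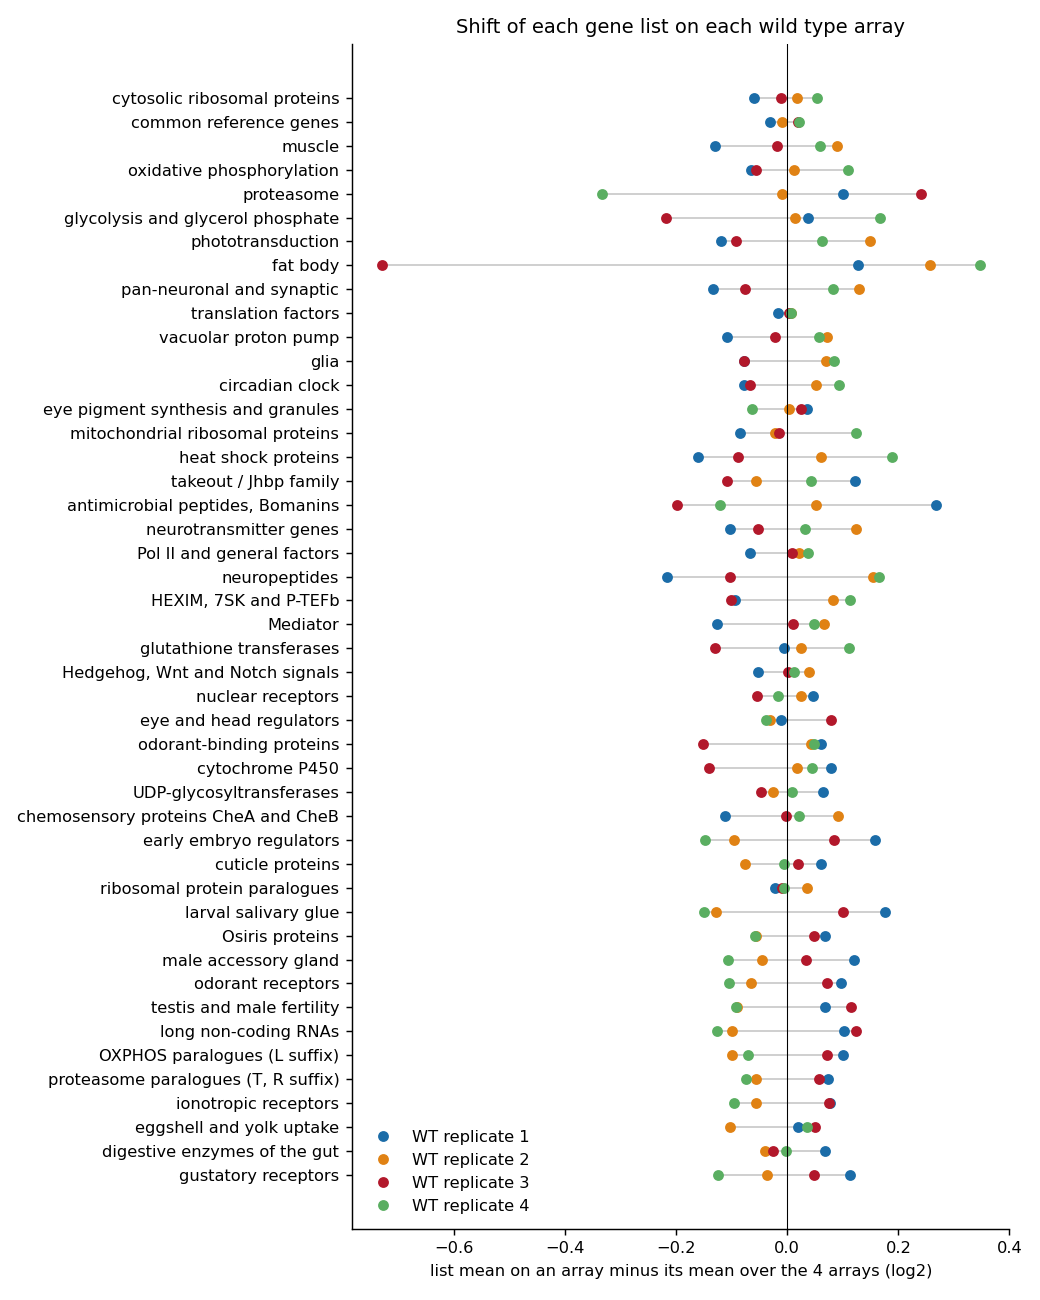
Mean level of each list with at least 10 measured genes on each WT array minus its mean over the 4 arrays (log2), 1 point per replicate, with lists ordered by median level. The fat body list is lowest in replicate 3 and the proteasome list is lowest in replicate 4, and most lists near background are lowest in replicates 2 and 4.

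The immune genes with a range of at least 1 did not share one division of the arrays. Mtk (metchnikowin), an antifungal peptide, had 8.93, 8.90, 7.01 and 6.90 in WT replicates 1 to 4, so that replicates 1 and 2 lay nearly 2 units above replicates 3 and 4 without overlap. DptB (diptericin B), which acts against bacteria, had 7.27, 8.17, 6.41 and 5.88, and TotC had 7.48, 8.47, 5.88 and 6.64, in both cases with replicate 2 highest and replicate 1 next. CecB (cecropin B) had 6.77, 5.98, 6.61 and 5.4, with replicates 2 and 4 low, and PGRP-SB1, a peptidoglycan recognition protein gene, had 7.80, 7.61, 6.70 and 7.37, with replicate 3 low. None of the 8 Bomanin genes reached a range of 1. Their SDs lay between 0.15 (BomS2) and 0.44 (BomS5), and replicate 1 was the highest array for each of them but BomT3. BomS5 had 11.64, 10.68, 10.76 and 10.93. Hr38, a nuclear receptor gene that responds to neuronal activity, had 8.17, 7.23, 6.74 and 6.0, with replicate 1 highest. Larger differences in replicate 1 were found in 2 genes chosen after their values were seen, CG14645 with 8.51, 4.30, 4.37 and 4.14 and CG34324 with 7.79, 3.61, 3.54 and 3.41, which the other arrays placed at or below the ceiling.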

How the data were processed

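The deposited table held log2 expression values of 8 arrays, which the authors had summarised per probe set. The labels name RMA and Affymetrix Expression Console and the methods name GCRMA, with no version given, so which of them made the table is not settled. The 4 columns labelled wild type were used as deposited, without further scaling. Probe sets were named from the platform's annotation. Of 18769 probe sets, 13646 had 1 gene symbol, 402 had several and 4721 had none, and 13543 were matched to RefSeq genes. A gene was represented by its brightest probe set. Means, SDs and ranges over the 4 arrays were computed in Python 3.11.15 (numpy 2.4.6, pandas 2.3.3), and the calculation was tested on simulated data. No test between groups was made. Gene lists and members were chosen with earlier results of these data known. Genes were named by rule: the 20 highest, the 15 with the largest SD above the ceiling, the 5 lowest, the gene nearest the median of each band, the 2 highest, the lowest and the most variable of each list of at least 3 genes, and Hexim, Cdk9 and CycT. Other genes named as examples of a list were chosen after their values were seen. Probe affinity, signal near saturation and the normalization shared by all arrays can each change an order of levels. The number of arrays limits the precision, and no sequence was used.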

Additional observations from a re-analysis of the deposited data

Results flagged for a closer look

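In 16 of the 274 sets of 4 WT values examined (named genes and list means), one array lay apart from the other 3 by more of the whole range than Dixon's critical value allows. Chance flags about 1 in 20 sets that are independent and not chosen by their values, which would be 13.7 here. Many of these genes were chosen by level or spread, and list means contain named genes. The count of flags can therefore not be judged against that number. WT replicate 3 stood apart in 6 of the 16 and was the low array in 5 of these. The 5 are not separate events, since Yp1 and Yp2 are part of the female head mean.

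In WT replicate 3, Yp2 was at 9.49 against 12.19 to 12.62 on the other arrays, Yp1 at 12.19 against 13.31 to 13.37, and the mean of the 4 female head genes was 9.21 against 11.77 to 12.22. GstE12 was at 11.36 against 11.65 to 11.67, and the mean of the 48 odorant-binding protein genes was 6.92 against 7.11 to 7.13. Without Obp99a and Obp56h, a choice made after seeing the data, that mean was 6.97 against 7.07 to 7.12. Obp99b was high in the same array, at 11.56 against 10.99 to 11.06.

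In WT replicate 1, BomS2 was at 12.18 against 11.86 to 11.91, Osi22 at 3.99 against 3.35 to 3.43, Ir10a at 6.43 against 7.20 to 7.35, RpL41 at 13.69 against 13.76 on all the others, and the mean of the translation factors at 8.76 against 8.78. In WT replicate 2, Gad1 was at 12.67 against 12.43 to 12.46, Mst77F, a sperm chromatin protein gene, at 7.51 against 6.95 to 7.04, Jon99Fi at 2.56 against 2.44 to 2.46, and Cpr62Bc at 12.76 against 12.95 to 12.97. In WT replicate 4, Or1a was at 6.33 against 6.93 to 7.04. Several of these differences are under 0.1 log2 units, and Jon99Fi and Osi22 lie below the background ceiling.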

How the results depend on the processing

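No paired analysis was possible because no groups were compared. Most list medians moved by less than the spread between arrays in the settings run, and the order of the 52 lists was nearly kept (Spearman correlation with the order reported at least 0.996 in every setting run). With the mean of a gene's probe sets in place of the brightest, 39 of 52 list medians stayed within that spread; the medians of phototransduction (10.02), eye pigment (8.82), synaptic (9.28), neurotransmitter (7.85), fat body (9.47), muscle (11.97), clock (8.5), eye and head regulator (6.68), male head (7.42), nuclear receptor (6.43), signal (6.85), homeotic (6.21) and glutathione transferase genes (7.25) were lower, the male head list by the most. Leaving out 1 array in turn moved the muscle median between 12.19 and 12.28. The count of fat body genes with a range of at least 1 fell to 2 without replicate 3, against 13 with it. The count of probe sets with a range of at least 1 was 727 to 887 over the arrays left out, against 1079, since fewer arrays span less, and 686 with probe sets above the ceiling only. With the 75th percentile of the off-tissue genes the ceiling was 4.99, and 8269 probe sets lay at or below it. With probe sets of 1 symbol only, 5934 did, because fewer were counted. Signals below the ceiling cannot be told from background.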
